A study of Homo sapiens with 38 samples.

Results

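RNA-seq libraries of RWPE-1 cells that carried an eGFP control plasmid were compared with RWPE-1 libraries labelled as genome-editing controls. RWPE-1 is an established line of immortalized normal prostate epithelial cells that does not form tumours. The comparison used 8 of the 38 samples of a study of the 7p15.2 prostate cancer risk region and its neighbour HOXA13, of which 36 were RNA-seq libraries and 18 were RNA-seq libraries of RWPE-1. Members were chosen by their labels: 3 eGFP libraries and 5 editing controls. Of 60252 genes in the expression table, 15066 reached 1 TPM (a transcript level scaled for gene length and library size) in at least 3 of the 8 libraries, and these were tested.

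The 3 eGFP libraries came from wild type cells labelled as a gene overexpression treatment. These cells received a plasmid expressing eGFP, a green fluorescent protein, and served as the control for a HOXA13 plasmid. They were harvested after 48 h, and the brightest 10% of eGFP-positive cells of 3 flasks were sorted. The 5 controls were wild type cells labelled as a genome editing treatment, and the labels do not say whether they had been transfected, sorted or grown from single cells, nor that they were separate cultures. All 8 libraries shared the line, keratinocyte serum-free medium, TRIzol extraction and a stranded mRNA kit. Plasmid, transfection, sorting, culture and batch cannot be told apart in this design, and p-values measure only the spread between these libraries. The expression table keeps no read depth. A second pair of groups that shared no library with this one, 3 sorted HOXA13-transfected libraries and 7 libraries with the 7p15.2 risk region deleted, is set beside it where stated. It too sets sorted transfected cells against a genome-editing group, so these factors cannot be told apart there either.

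Foreign DNA and RNA in the cytoplasm are read by innate sensors, whose signals converge on the transcription factors IRF3 and NF-kB. IRF3 drives transcription of type I and type III interferons, secreted proteins that act on the same and on neighbouring cells through cell surface receptors and switch on a broad antiviral programme. Transfection and cell sorting are each also known to expose cells to physical and metabolic stress, which immediate early genes, heat shock factors, ATF4 and p53 record in different ways.

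The groups differed across much of the transcriptome. By limma on log2(TPM + 1) with a Benjamini-Hochberg adjusted p under 0.05, 3671 genes (24.4%) were higher and 3423 (22.7%) were lower in the eGFP libraries, 47.1% in all. At least a 2-fold difference on that scale was reached by 1251 genes higher (8.3%) and 666 lower (4.42%). For 7319 genes (48.6%) no eGFP library overlapped any control, 25.7% above and 22.9% below. The median difference over all genes tested was 0.02 on the log2 scale. These shares are the background for every count below. Where 0 genes of a list were called in a direction, 0 also passed in that direction at an unadjusted limma p under 0.05. Between 14490 and 14870 genes reached 1 TPM in the eGFP libraries and between 13818 and 14209 in the controls. The 10 most abundant genes took 13.5% to 15.9% of TPM and mitochondrially encoded genes 13.2% to 16.2% over the 8 libraries. Controls 3 and 5 stood apart from controls 1 and 2 in interferon-responsive genes, as described with those genes.

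**Figure D1:**
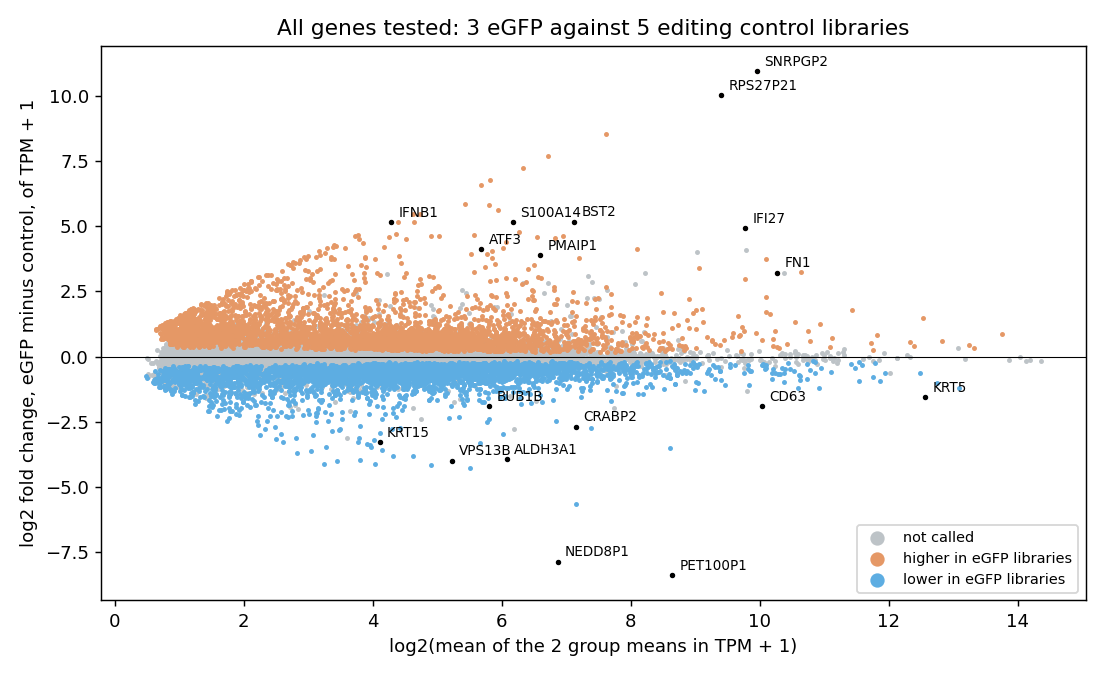
Level of each of the 15066 tested genes (log2 of the mean of both group means in TPM, plus 1, x axis) against the difference between the eGFP libraries and the editing controls (log2, y axis). Points are genes, with those higher or lower at an adjusted p under 0.05 in colour (3671 and 3423). The labelled genes include IFNB1 at 5.16 and the pseudogenes SNRPGP2 at 10.95, RPS27P21 at 10.03, PET100P1 at -8.37 and NEDD8P1 at -7.85.

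The regions that carry 2 of the programmes are shown before the values. Each line gives the 150 bases upstream of the annotated start of a gene that was higher in the eGFP libraries, 5′ to 3′ on the gene's strand, from the RefSeq promoter table of GRCh38.p14. Capitals mark matches on either strand to GAAA followed after any 2 bases by GAAA, the core of the interferon-stimulated response element, in BST2 and IFI27. In IFNB1, IL6 and CXCL8 they mark GGGA followed after any 4 bases by CC, a loose pattern for an NF-kB site. Sites of another spelling, such as ggaatttcct in the CXCL8 line, stay in lower case. A capital run therefore need not be the site that NF-kB uses. They span chr9:21077943-21078092 (minus strand, IFNB1), chr19:17405631-17405780 (minus, BST2), chr14:94110586-94110735 (plus, IFI27), chr7:22727050-22727199 (plus, IL6) and chr4:73740419-73740568 (plus, CXCL8).
IFNB1: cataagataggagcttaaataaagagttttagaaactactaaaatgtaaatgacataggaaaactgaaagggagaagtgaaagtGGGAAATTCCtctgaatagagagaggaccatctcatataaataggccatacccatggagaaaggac
BST2: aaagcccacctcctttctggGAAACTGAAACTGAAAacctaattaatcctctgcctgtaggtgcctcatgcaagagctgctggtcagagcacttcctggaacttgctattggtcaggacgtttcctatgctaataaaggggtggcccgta
IFI27: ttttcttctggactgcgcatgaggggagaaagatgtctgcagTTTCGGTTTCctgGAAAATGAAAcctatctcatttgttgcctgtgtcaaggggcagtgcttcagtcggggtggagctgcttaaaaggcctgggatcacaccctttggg
IL6: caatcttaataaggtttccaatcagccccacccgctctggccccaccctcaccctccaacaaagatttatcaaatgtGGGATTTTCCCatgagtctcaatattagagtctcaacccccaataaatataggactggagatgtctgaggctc
CXCL8: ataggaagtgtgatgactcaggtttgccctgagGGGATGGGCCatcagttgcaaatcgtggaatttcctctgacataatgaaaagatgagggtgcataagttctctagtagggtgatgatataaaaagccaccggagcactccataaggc

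In BST2 and in IL6 a pair of matches overlap and form 1 capital run, and in IFI27 the first capital run is a match on the opposite strand. Over windows of 300 bases (250 upstream to 50 downstream of the start), the interferon element was found in 23 of the 40 interferon-response genes with an entry, 57.5%, against 3.65% of 27305 promoters and 2.84% of those of 10441 tested genes. Of those 23 genes, 10 were higher in the eGFP libraries by the test. The NF-kB pattern was found in 16 of 22 NF-kB and cytokine genes, 72.7%, against 25.1% of all promoters and 31.2% of those of tested genes, and all 16 were higher. In the interferon-response genes it was found in 32.5%, a share near that of tested genes. TGATGNAA, the amino acid response element, was present in 5 of 23 ATF4-pathway promoters, 21.7%, against 3.67% of all and 1.51% of those of tested genes. TGANTCA, an AP-1 site, was found in 1 of 25 immediate early promoters, 4%, against 7.76% of all and 4.44% of those of tested genes. TTTGAA, a cell cycle element, was found in 13 of 44 cell cycle and replication promoters, 29.5%, against 15.4% and 9.47%. None of the 13 genes was higher, in a list where 4 of 55 were higher and 31 lower. How many of the 13 were lower was not counted. The interferon element was also present in 5 of 13 nucleic acid sensing promoters. A match describes letters and not occupancy by a factor.

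Interferon genes were near 0 in the controls and expressed in every eGFP library. IFNB1, which encodes interferon beta, was at 36.6, 33.1 and 41.6 TPM in eGFP libraries 1 to 3 and at 0.12, 0.14, 0, 0.05 and 0 TPM in controls 1 to 5. IFNL1, the first of the type III interferons that act chiefly on epithelium, was at 52.6, 44 and 45.3 against 0.06, 0.14, 0, 0.2 and 0 TPM. No control reached 0.3 TPM for either gene, and the eGFP libraries lay close together. On the log2(TPM + 1) scale the difference was 5.16 ± 0.12 (SE) for IFNB1 (limma adjusted p = 2.35e-08) and 5.48 ± 0.12 for IFNL1 (adjusted p = 2.13e-08). The neighbouring type III genes IFNL2 (17 to 17.9 TPM against 0 to 0.08) and IFNL3 (12.4 to 12.8 against 0 to 0.15) were higher by 4.17 and 3.71. IFNL2 and IFNL3 are near-identical copies, so reads may be divided between them by the authors' counting and their separate levels are uncertain. These interferon genes passed the filter on low values only through the eGFP libraries, where they are high. The same held for TNF, HSPA6, EPCAM, MMP9, CDA, SNRPGP2 and TBPL1P1 below, among others. Their p-values therefore add no support beyond the levels listed.

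Of 51 interferon-responsive genes, 26 were higher and 0 lower, with a median of 2.46 on the log2 scale against 0.02 for all genes. For 41 of them every eGFP library lay above every control. BST2, also called tetherin, which holds budding virus at the cell surface, was at 250.0, 263 and 277 TPM in the eGFP libraries and 31.7, 30.6, 0.34, 10.1 and 0.33 TPM in the controls. RSAD2, or viperin, was at 139.7, 142 and 149 against 21.8, 16.1, 0.01, 6.8 and 0.34 TPM. Every eGFP library exceeded every control for both, while the controls themselves ran from below 1 TPM in replicates 3 and 5 to 16 TPM or more in replicates 1 and 2. The log2 difference was 5.18 ± 1.15 for BST2 (limma adjusted p = 0.00601) and 4.77 ± 1.03 for RSAD2 (adjusted p = 0.00525). ISG20, an exonuclease that degrades viral RNA, was higher by 4.59, and CCL5, a chemokine for T cells, by 4.59. IFIT2, which binds viral RNA, stood at 427 to 565 against 2.73 to 87.1 TPM and was higher by 4.14. HERC5, the ligase that attaches ISG15 to proteins, was higher by 3.27, and OASL, an enhancer of RIG-I signalling, by 3.79. BST2, HERC5, IFIT2, ISG20, OASL, RSAD2 and ZC3HAV1 passed the test in each of the 20 alternative settings tried.

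The controls differed among themselves in these genes. Relative to the control mean, the median over the 51 genes was 2.42 to 2.54 in the eGFP libraries and 1.66, 1.61, -2.43, 0.41 and -1.34 in controls 1 to 5. Their summed level was 19704 to 20197 TPM against 1071 to 9922 TPM. MX1, a dynamin-like antiviral GTPase, was at 837, 821 and 896 TPM against 427, 403, 1.66, 129 and 5.71 TPM, a log2 difference of 4.02 ± 1.69 with an adjusted p of 0.0798 by limma. The eGFP libraries lay above all controls, with controls 1 and 2 nearest to them and controls 3 and 5 far below. IFI6 (4.09 ± 1.67, adjusted p = 0.0725), IFIT1 (2.80 ± 1.25, 0.0949), IFIH1, the sensor MDA5 (2.57 ± 1.05, 0.0733), and RIGI, the sensor RIG-I (2.46 ± 1.03, 0.0793), likewise missed the threshold. Without control 1 the adjusted p was 0.0454 for MX1, 0.0433 for IFI6, 0.0397 for IFIH1 and 0.044 for RIGI, and without control 2 it was 0.0484, 0.044 and 0.0476 for MX1, IFIH1 and RIGI. MX2 (198 to 207 against 0.03 to 51.8 TPM) was higher by 4.56 ± 1.32 (adjusted p = 0.0203), but its adjusted p was 0.0591 to 0.0598 without any 1 eGFP library. IFI27 (1465 to 1714 against 0.9 to 324 TPM) was higher by 4.93 ± 1.71 (adjusted p = 0.0411), and its adjusted p was 0.0759 to 0.105 without an eGFP library or control 5.

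The number of interferon-responsive genes called higher moved with the libraries used. It was 11, 11 and 12 without eGFP replicates 1, 2 and 3, and 35, 33, 29, 23 and 18 without controls 1 to 5. Against controls 3 to 5 alone it was 51, and against controls 1 and 2 alone 40 were higher and 5 lower. With no filter on low values it was 15, and with all 18 RWPE-1 libraries in 1 fit 42. CXCL10, an interferon-induced chemokine, was at 23.9, 22.7 and 27.6 TPM in the eGFP libraries and 89.6, 80.0, 0.03, 4.91 and 0.28 TPM in the controls. Its eGFP levels fell between the high controls 1 and 2 and the low controls 3 to 5, and the log2 difference of 1.52 ± 1.55 did not pass (adjusted p = 0.446). Against controls 1 and 2 alone it was lower by 1.74 with an adjusted p of 7.79e-05, as were IFI44L, STAT2, EIF2AK2 and CXCL11 by smaller amounts. In the other pair of groups, which shares no library, all 51 genes were higher in the HOXA13-transfected libraries (background 33.7%). Relative to the editing control mean, the list median in the deletion libraries was -2.01 to -0.55, below that of controls 1, 2 and 4.

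**Figure D2:**
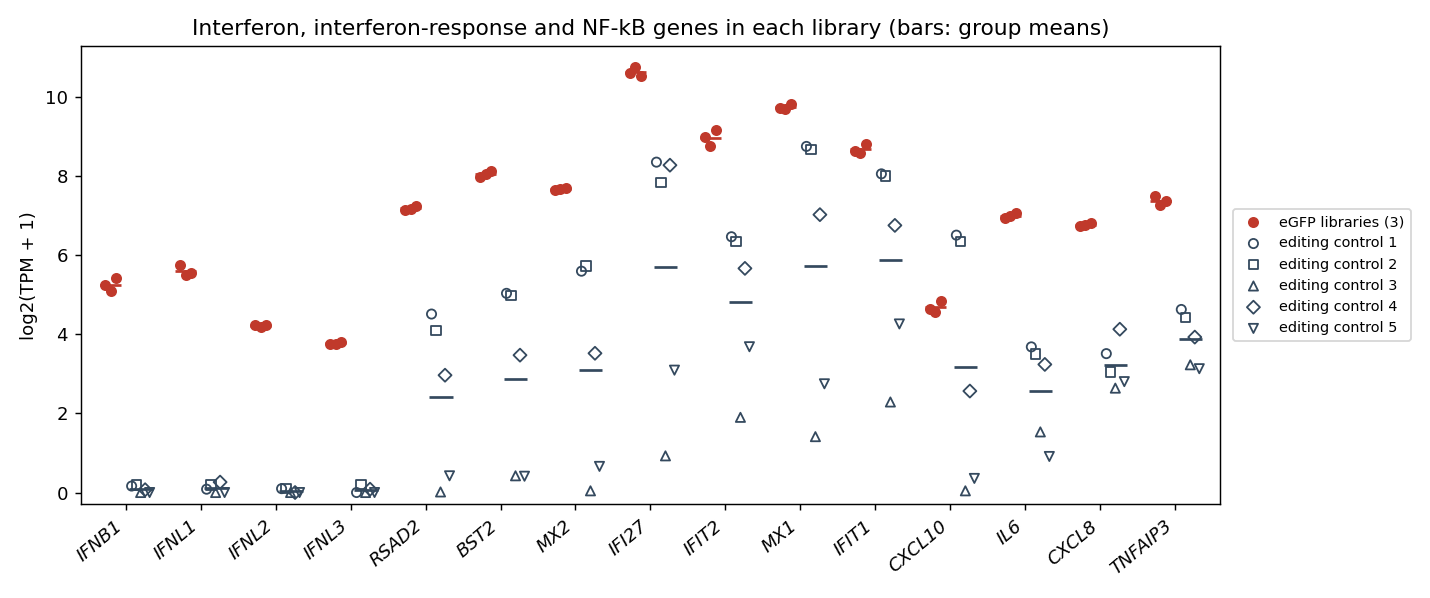
Level of interferon, interferon-responsive and NF-kB genes in each library (log2 TPM + 1, y axis); points are libraries, bars are group means, and each of the 5 controls has its own symbol. The 3 eGFP libraries lie together and above every control for all genes drawn except CXCL10, whose controls 1 and 2 lie above them, and the interferon-responsive genes are lowest in controls 3 and 5.

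The sensors upstream of interferon did not share 1 direction. CGAS, which makes the cyclic dinucleotide that activates STING on binding cytosolic DNA, was at 12, 10.7 and 12.9 against 14.4, 12.7, 9.75, 13.5 and 11.6 TPM and overlapped (log2 difference -0.05 ± 0.13, adjusted p = 0.777). STING1 was at 44.1, 46.6 and 46.6 against 78.4, 76.8, 42.9, 56.8 and 51.9 TPM, below 4 of 5 controls, with a difference of -0.38 ± 0.19 (adjusted p = 0.133, or -0.50 and 0.0307 without control 3). MAVS, the mitochondrial adaptor of RIG-I and MDA5, was lower, at 11.7 to 13.5 against 20.6 to 23 TPM (difference -0.77 ± 0.08, limma adjusted p = 0.000176). TICAM1, the adaptor of the endosomal RNA receptor TLR3, was higher at 28.4 to 31.8 against 8 to 9.15 TPM, by 1.73 ± 0.09 (adjusted p = 3.12e-06). IRF3 itself was higher by 0.86, and ZBP1, a sensor of Z-form nucleic acid, by 1.75. Of 17 tested nucleic acid sensing genes 9 were higher and 2 lower, with a median of 0.97, and 1 was lower without any 1 of eGFP replicates 1 and 2 and controls 1, 2 and 4.

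Most NF-kB targets and cytokines were higher. Of 28 tested, 24 were higher and 0 lower, with a median of 2.30 on the log2 scale, and the count was 23 to 25 when any 1 library was left out. IL6, a pro-inflammatory cytokine, was at 121, 125 and 132 TPM in the eGFP libraries and 11.8, 10.3, 1.89, 8.42 and 0.88 TPM in the controls. CXCL8, the neutrophil chemokine interleukin 8, was at 106, 107 and 110.3 against 10.4, 7.25, 5.22, 16.4 and 5.97 TPM. The groups did not overlap for either gene, and the log2 differences were 4.42 ± 0.63 (limma adjusted p = 0.000661) and 3.54 ± 0.30 (adjusted p = 5.64e-05). IL32, a cytokine of epithelium and lymphocytes, was higher by 3.93 and CXCL3 by 3.44. The feedback inhibitors moved the same way: TNFAIP3, the ubiquitin-editing protein A20, was at 153 to 177 against 7.74 to 23.7 TPM, higher by 3.51. NFKBIA, which encodes the inhibitor IkB alpha, was at 238 to 264 against 38.9 to 76.4 TPM, higher by 2.07. TNF was listed at 0.02 to 0.15 TPM in the controls and at 6.01 to 7 TPM in the eGFP libraries. CCL2, a monocyte chemokine, was at 8.93, 10.3 and 10.1 TPM in the eGFP libraries and 134, 129.7, 2.38, 27 and 7.11 TPM in the controls, and the groups overlapped (difference -1.31 ± 1.18, adjusted p = 0.387). Against controls 1 and 2 alone the difference was -3.63 for CCL2, -0.91 for SAA1 and -1.79 for SAA2, serum amyloid proteins of the acute phase, and all 3 passed the test as lower. Against all 5 controls SAA1 differed by 0.22 (adjusted p = 0.795) and SAA2 by -0.16 (0.903).

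Antigen presentation genes were higher as well. Of 17 MHC class I and immunoproteasome genes, 11 were higher and 0 lower (median 1.23), with 7 higher without eGFP replicate 2 or 3. Against controls 1 and 2 alone 3 were lower: PSME2, a proteasome activator subunit, at -0.20, and the peptide-trimming ERAP1 and ERAP2 at -0.32 and -0.38, where the differences from all 5 controls were 0.22, 0.33 and 0.19 and did not pass. HLA-B, a peptide-presenting heavy chain, was at 1465, 1461 and 1506 against 480.5, 434, 31.7, 258 and 134 TPM, a log2 difference of 2.97 ± 0.79 (limma adjusted p = 0.0137). All controls lay below all eGFP libraries, and control 3 lay furthest below. HLA-F was higher by 2.68, PSMB9, a catalytic subunit of the immunoproteasome, by 2.03, and TAP1, the peptide transporter, by 1.82. HLA class I genes are close in sequence and highly variable, so reads may be divided between them. In the HOXA13 and deletion pair 17 of 17 were higher (background 33.7%). Relative to the editing control mean, the list median in the deletion libraries was -1.30 to -0.57. It was 0.66 and 0.52 in controls 1 and 2 and -1.04 in control 3.

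**Figure D3:**
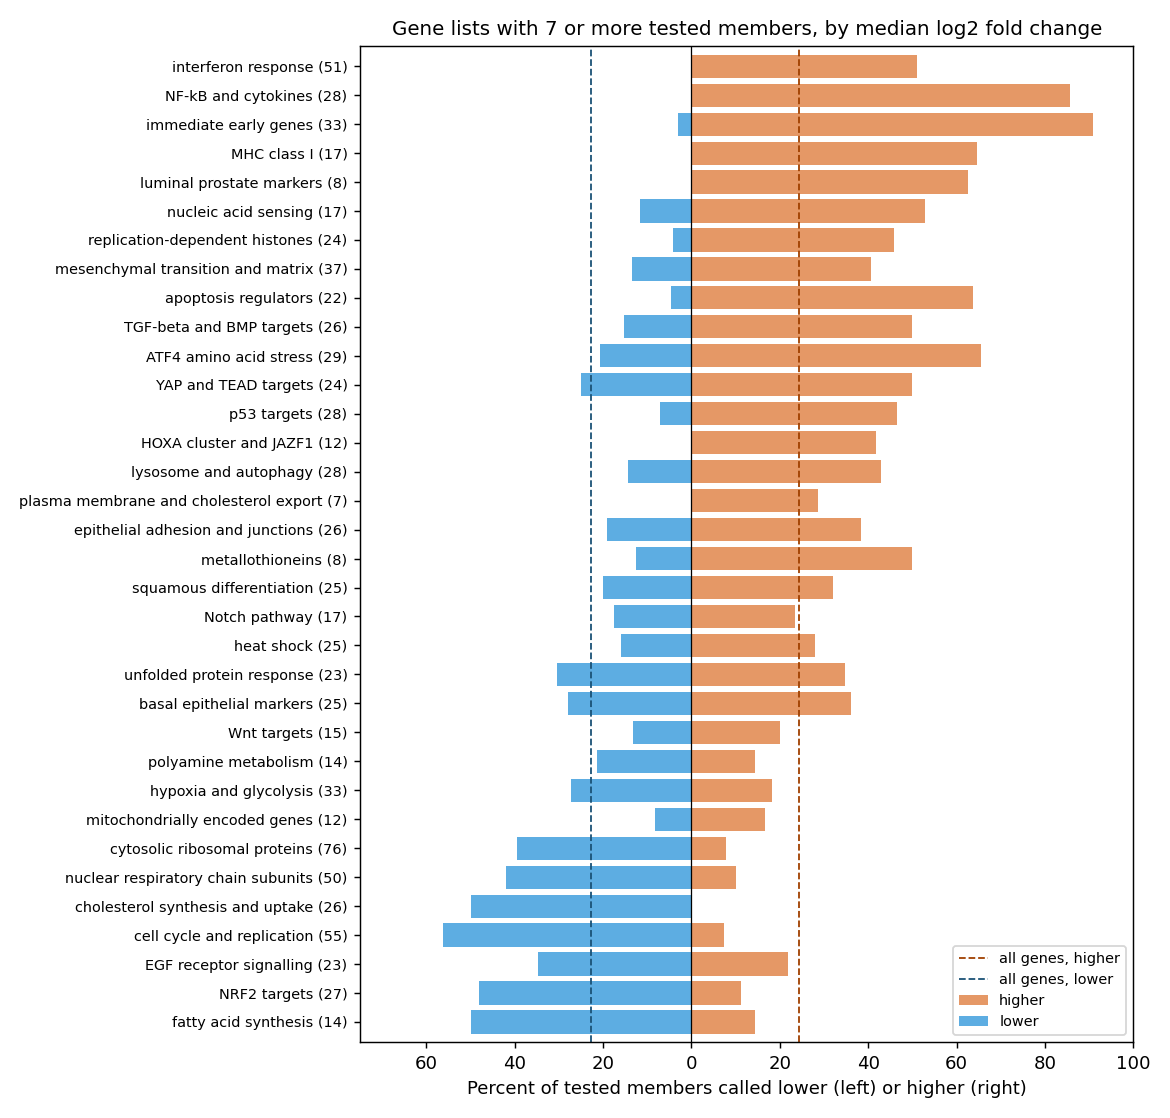
Percent of the tested genes of each gene list that were higher (right) or lower (left) in the eGFP libraries at an adjusted p under 0.05, for lists with 7 or more tested genes. Dashed lines mark the shares over all genes tested (24.4% higher and 22.7% lower), and the immediate early and NF-kB lists reach furthest to the right.

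Immediate early genes, transcription factors and phosphatases induced within minutes of a stimulus without new protein synthesis, were higher in 30 of 33 tested and lower in 1, with a median of 1.23. The count was 27 to 30 when any 1 library was left out. ATF3, a stress-induced bZIP repressor, was at 92.6, 101 and 94.8 TPM in the eGFP libraries and 5.48, 5.62, 2.42, 8.78 and 2.88 TPM in the controls, a difference of 4.11 ± 0.32 (limma adjusted p = 2.89e-05). No control reached 10 TPM. KLF4, a zinc finger factor of epithelial differentiation, was at 301 to 356 against 31.5 to 62.7 TPM and higher by 2.67. JUN, an AP-1 subunit, was at 132 to 156 against 21.3 to 37.5 TPM and higher by 2.18. PPP1R15A, or GADD34, which directs dephosphorylation of eIF2 alpha, was higher by 3.01. The single member that was lower was DUSP6, the ERK phosphatase, at 98.4 to 108 against 155 to 285 TPM (difference -1.11 ± 0.20, adjusted p = 0.00205).

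Heat shock genes were called in both directions, in shares near those over all genes: 7 of 25 were higher and 4 lower (median 0.08). HSPA6, an HSP70 that is transcribed almost only under proteotoxic stress, was at 51.7, 49.2 and 41.2 TPM in the eGFP libraries and 0.26, 0.25, 0.27, 0.16 and 0.85 TPM in the controls. Its log2 difference was 5.17 ± 0.17 (limma adjusted p = 2.28e-07), and no control reached 1 TPM. The inducible HSPA1A (239 to 282 against 92 to 125 TPM) and its cochaperone DNAJB1 (190.3 to 219.7 against 90.1 to 119.9 TPM) were higher, whereas HSPA8 (-0.68), HSPD1 (-0.62) and HSPE1 (-0.51), abundant in unstressed cells, were lower. Of 23 unfolded protein response genes, 8 were higher and 7 lower (median 0.07), and under median-ratio scaling 6 were higher and 7 lower. HERPUD1, which acts in degradation of misfolded endoplasmic reticulum proteins, was higher by 1.19, and EDEM1, which extracts misfolded glycoproteins, was lower (-0.84 ± 0.14). Without eGFP replicate 2 the number of unfolded protein response genes called higher was 5.

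Among 29 ATF4 and amino acid stress genes 19 were higher and 6 lower (median 0.51). DDIT3, the factor CHOP, was at 34.4, 40.5 and 35.1 against 7.1, 6.83, 6.29, 13.8 and 11.4 TPM, a difference of 1.96 ± 0.24 (limma adjusted p = 0.00032). CHAC1, which degrades glutathione, was higher by 2.05. SLC7A11, the cystine importer and also an ATF4 target, went the other way: it was at 6.62 to 7.54 against 15.2 to 24.5 TPM, a difference of -1.41 ± 0.14 (adjusted p = 0.000132).

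More apoptosis and p53 genes were called higher than lower. Of 28 p53 targets 13 were higher, 2 lower and 13 not called (median 0.40), and of 22 apoptosis regulators 14 were higher and 1 lower (median 0.62). CDKN1A, the cyclin-dependent kinase inhibitor p21, was at 138, 140.0 and 136 TPM in the eGFP libraries and 31.8, 26.2, 24.2, 43.4 and 22.3 TPM in the controls, a difference of 2.22 ± 0.19 (limma adjusted p = 5.69e-05). PMAIP1, the BH3-only protein NOXA, was at 182, 158 and 201 against 14.4, 11.6, 6.59, 17.6 and 8.59 TPM, a difference of 3.89 ± 0.27 (adjusted p = 1.75e-05). Both genes were several-fold above the highest control in every eGFP library. BBC3, the BH3-only protein PUMA, was higher by 1.55, the secreted stress factor GDF15 by 1.83, and BAK1, a pore former of the outer mitochondrial membrane, by 1.09.

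Of 55 cell cycle and replication genes 31 were lower and 4 higher (2 without eGFP replicate 3), with a median of -0.46, and 23 to 35 were lower when any 1 library was left out. BUB1B, a kinase of the spindle checkpoint, was at 21.4, 22.3 and 22.7 TPM in the eGFP libraries and 62.9, 75.8, 114, 82.5 and 103 TPM in the controls, a difference of -1.91 ± 0.18 (limma adjusted p = 8.43e-05). CDK1, the mitotic kinase, was at 28.3 to 32.7 against 66 to 118 TPM and lower (-1.53 ± 0.18, adjusted p = 0.000236). The mitotic motors CENPE (-1.66) and KIF20A (-1.64) and the proliferation marker MKI67 (-0.70) were lower as well. In bulk RNA, fewer cycling cells and less of these transcripts per cell cannot be told apart. Replication-dependent histone genes, whose transcripts normally end in a stem-loop without a poly(A) tail, did not follow: 11 of 24 were higher and 1 lower (median 0.84; 0 lower without eGFP replicate 1 or 3). H2AC25 was at 34.5, 37 and 35.1 against 5.34, 4.96, 4.26, 8.51 and 5.17 TPM, a difference of 2.49 ± 0.18 (adjusted p = 2.05e-05), and H2BC21 was higher by 2.31. The count of higher histone genes was 4 of the 10 tested at 5 TPM or more, 18 without control 4, and 19 against controls 1 and 2 alone. Histone genes are near-identical copies, and reads may be divided between them.

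Lipid synthesis genes were lower. None of 26 cholesterol synthesis and uptake genes was higher by limma and 13 were lower (median -0.30), but only 6 to 8 were lower without any 1 eGFP library and 8 with no filter on low values, 7 without control 1 and 8 without control 5. CYP51A1, which demethylates lanosterol, was at 119, 119.6 and 116 against 209.5, 188, 231, 148 and 219 TPM, a difference of -0.73 ± 0.13 (limma adjusted p = 0.00248). HMGCS1, which makes HMG-CoA early in the pathway, was lower, with a difference of -0.76 ± 0.17 (adjusted p = 0.00665). Of 14 fatty acid synthesis genes 7 were lower and 2 higher (median -0.59; 1 higher without eGFP replicate 2). ACACA, acetyl-CoA carboxylase, was at 22.9 to 24.6 against 55.2 to 62.9 TPM and the elongase ELOVL6 also lower, with differences of -1.26 and -1.24. Among 7 genes of plasma membrane cholesterol export 2 were higher and 0 lower (median 0.26; 1 lower without control 3).

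NRF2 targets of antioxidant and detoxifying metabolism were lower in 13 of 27 and higher in 3 (median -0.55). ALDH3A1, an aldehyde dehydrogenase of exposed epithelia, was at 5.45, 6.01 and 7.62 TPM in the eGFP libraries and 131, 146, 30.4, 168 and 161 TPM in the controls, a difference of -3.92 ± 0.52 (limma adjusted p = 0.000454). Control 3 was the lowest of the controls and still above every eGFP library. The quinone reductase NQO1 (71.1 to 74.5 against 143 to 332 TPM, -1.56) and GCLC, the limiting enzyme of glutathione synthesis (-1.57), were lower. SQSTM1, the autophagy receptor p62 and also an NRF2 target, was higher, at 324 to 358 against 72.8 to 201 TPM (1.56 ± 0.27, adjusted p = 0.00166).

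Of 28 lysosome and autophagy genes 12 were higher and 4 lower (median 0.37). GABARAPL1, an ATG8 protein of autophagosomes, was at 21.6, 21.8 and 21.8 against 2.02, 2.58, 2.34, 6.48 and 1.96 TPM (difference 2.58 ± 0.29). CD63, a tetraspanin of late endosomes, was at 465, 415 and 447 against 1625, 1805, 1546, 1750.5 and 1547 TPM (difference -1.90 ± 0.08, limma adjusted p = 9.38e-07). The groups did not overlap for either gene, and their directions were opposite. Hypoxia and glycolysis genes were divided, with shares near those over all genes: 6 were higher and 9 lower of 33 (median -0.11), with 4 to 5 lower without any 1 eGFP library and 19 against controls 1 and 2 alone. ADM, which encodes the hypoxia-induced peptide adrenomedullin, was at 28 to 30.6 against 1.62 to 2.67 TPM and higher by 3.22. PKM, pyruvate kinase, was lower (-0.85).

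Nuclear-encoded respiratory chain subunits were lower in 21 of 50 and higher in 5 (median -0.19), and 2 and 3 were higher without eGFP replicates 2 and 3. Of 76 cytosolic ribosomal protein genes 30 were lower and 6 higher (median -0.13), with RPL6 (-1.20) and RPS28 (-1.31) the named members that were lower. Of 12 mitochondrially encoded genes 2 were higher and 1 lower (median -0.11; 0 lower without eGFP replicate 2), and MT-ND4, a complex I subunit, differed by -0.10 ± 0.11 (adjusted p = 0.488). Metallothioneins, which bind zinc and copper, were higher in 4 of 8 and lower in 1 (median 0.14; 2 lower without control 3). Polyamine metabolism genes were higher in 2 of 14 and lower in 3 (median -0.07), and 1 was higher without any 1 of eGFP replicates 2 and 3 and controls 1, 2 and 4.

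The identity markers of the line were present in both groups. KRT5, a keratin of basal epithelial cells, was at 3048, 3126 and 2931 TPM in the eGFP libraries and 10310.3, 10093, 8808, 5962 and 10296 TPM in the controls, a difference of -1.55 ± 0.18 (limma adjusted p = 0.00023). Its basal partner KRT14 was at 3176, 3275 and 3089.8 against 5759.8, 5879.6, 5080.4, 2843 and 6151 TPM (-0.64 ± 0.24, adjusted p = 0.0507, or -0.84 and 2.91e-04 without control 4). TP63, the basal lineage factor, was at 63 to 65.6 against 34 to 117 TPM and overlapped (-0.22 ± 0.36, adjusted p = 0.629). KRT15, a keratin of quiescent basal cells, stood at 2.15, 1.27 and 1.7 against 30.7, 34, 5.7, 29.2 and 54.6 TPM, a difference of -3.29 ± 0.58. Integrin ITGA6 was also lower (-0.66). Of 25 tested basal markers 9 were higher and 7 lower (median 0.04), and their summed level over 28 matched markers was 21368 to 22734 TPM against 17224 to 27692 TPM.

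Of 21 matched luminal markers 8 passed the filter on low values, of which 5 were higher and 0 lower (median 1.02), and 3 were higher without any 1 eGFP library. With no filter 8 of 20 were higher. Like IFNB1 and others above, FOXA1 passed the filter only through the eGFP libraries, where it is high. KRT8, a simple-epithelium keratin, was at 658, 730.1 and 664 against 459.8, 443, 358, 335 and 144 TPM (1.08 ± 0.34, limma adjusted p = 0.0284), with an adjusted p of 0.0716 to 0.088 without any 1 eGFP library, while its partner KRT18 differed by -0.18 ± 0.14 (adjusted p = 0.332). KRT19 was at 33.2, 30.9 and 32.7 against 0.09, 0.2, 0.2, 42.6 and 1.36 TPM, and control 4 lay above every eGFP library. Its difference of 3.59 ± 1.12 (adjusted p = 0.0279) had an adjusted p of 0.0511 to 0.0771 without any 1 of the eGFP libraries or of controls 1 to 3. FOXA1, a pioneer factor of luminal cells, was listed at 1.54 to 1.63 TPM against 0 to 0.04 TPM. The secreted kallikreins KLK3 and KLK2 did not exceed 0.02 and 0.12 TPM in any of the 8 libraries.

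Genes of epithelial adhesion were higher in 10 of 26 and lower in 5 (median 0.24), with 6 higher and 3 lower without eGFP replicate 1 and 3 lower without replicate 2. EPCAM, a homophilic adhesion protein of simple epithelia, was at 19.5, 14.9 and 16.9 TPM in the eGFP libraries and 0.05, 0.08, 0.09, 0.36 and 0.15 TPM in the controls, a difference of 3.98 ± 0.14 (limma adjusted p = 3.3e-07). The controls held next to no EPCAM transcript. The epithelial splicing regulator ESRP1 was higher by 3.12 and the tight junction protein CLDN7 by 2.42. CDH1, or E-cadherin, was at 20.5, 24.6 and 21.1 against 7.01, 10.7, 16.3, 4.22 and 2.71 TPM (1.54 ± 0.45, adjusted p = 0.0206), with an adjusted p of 0.0548 to 0.0706 without any 1 eGFP library. S100A14, a calcium-binding protein of epithelia, was at 131 to 151 against 1.06 to 5.78 TPM and higher by 5.16.

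Mesenchymal transition and matrix genes were also higher, in 15 of 37 with 5 lower (median 0.74), with 2, 2 and 3 lower without eGFP replicates 1, 2 and 3. FN1, fibronectin, was at 2239.7, 2207 and 2232 TPM in the eGFP libraries and 287, 285, 256, 152 and 247 TPM in the controls, a difference of 3.21 ± 0.19 (limma adjusted p = 8.67e-06). MMP9, a gelatinase, was at 13.3 to 14.9 against 0 to 0.05 TPM and higher by 3.86. INHBA, the activin A subunit, was at 62.7, 60.4 and 60.2 against 1.02, 0.82, 5.01, 1 and 1.34 TPM, and higher by 4.62. All 3 eGFP libraries lay above all controls for these genes. The repressor of E-cadherin SNAI1 was higher by 2.53. VIM, vimentin, was at 1694 to 1879 against 1713 to 1913 TPM and differed by -0.03 ± 0.07 (adjusted p = 0.725). Markers described as epithelial and markers described as mesenchymal were thus higher in the same libraries.

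An integrin chain and laminin chains of basal cell adhesion were higher. ITGA3, the integrin alpha 3 chain, was at 3024, 3081 and 2594 TPM in the eGFP libraries and 294, 288, 301, 322 and 312 TPM in the controls, a difference of 3.25 ± 0.08 (limma adjusted p = 2.77e-08). The laminin chains LAMB3 (2.79) and LAMA3 (2.49) were higher too, as was the neurotrophin receptor NGFR (2.14), a marker of basal cells. The laminin chains were chosen after their values were seen. Integrin ITGA6 (-0.66) and the basal keratins KRT5 (-1.55) and KRT15 (-3.29) were lower. The basal marker list went both ways, with 36% higher and 28% lower against 24.4% and 22.7% over all genes.

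Squamous differentiation genes were higher in 8 of 25 and lower in 5 (median 0.13), shares not far from those over all genes, with 1, 2 and 2 lower without eGFP replicates 1, 2 and 3 and 2, 3 and 3 without controls 1, 2 and 5. At 5 TPM or more 3 were higher, and with no filter on low values 13. KRT16, a keratin of activated and wounded epithelium, was at 161 to 189 against 19.3 to 66.9 TPM and higher by 2.02. The cornified envelope protein PPL (-2.40) and the retinoic acid binding protein CRABP2 (-2.68) were lower. S100A9, a calgranulin, was at 31.9, 32.1 and 41.5 TPM in the eGFP libraries and 1447, 1306, 28.2, 310.4 and 627 TPM in the controls. Control 3 lay below every eGFP library and the other controls far above them, and the difference of -3.49 (limma adjusted p = 0.0328) had an adjusted p of 0.051 to 0.0908 without any 1 of the eGFP libraries or of controls 1, 2, 4 and 5. CYP1B1, a dioxin-inducible monooxygenase, was lower, with a difference of -2.49 ± 0.31.

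**Figure D4:**
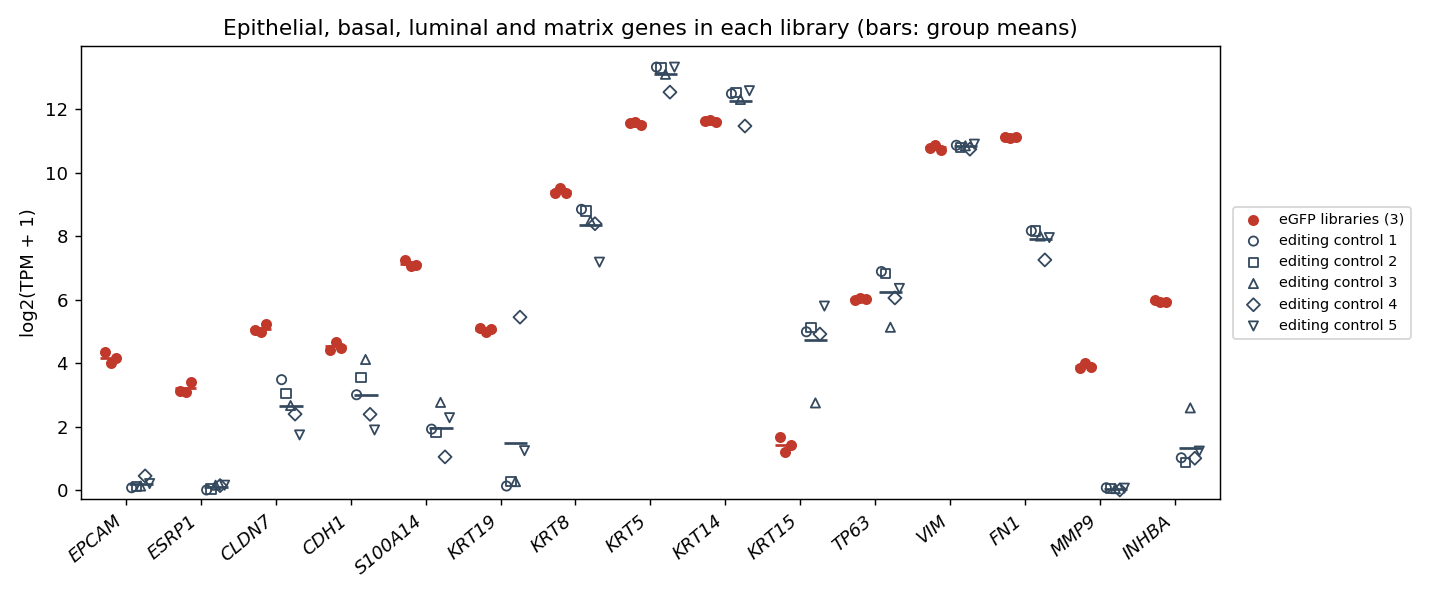
Level of epithelial, luminal, basal and matrix genes in each library (log2 TPM + 1, y axis); points are libraries, bars are group means, and each of the 5 controls has its own symbol. EPCAM, S100A14, FN1 and INHBA separate the groups in every library, VIM does not, and control 4 stands apart from the other controls in KRT19.

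Signalling targets differed by pathway, and for Notch and Wnt the shares were near or below those over all genes. Of 26 TGF-beta and BMP targets 13 were higher and 4 lower (median 0.58; 2 lower without any 1 eGFP library), among those higher ID2, an inhibitor of helix-loop-helix factors (3.03). Of 24 YAP and TEAD targets 12 were higher and 6 lower (median 0.48), with 7, 6 and 7 higher without eGFP replicate 1, eGFP replicate 3 and control 4, 3 lower without eGFP replicate 1 or 2, and 8 higher and 7 lower under median-ratio scaling. CCN1, a matricellular protein, was higher by 2.33, and AMOTL2, a YAP-binding scaffold, by 1.85. Of 17 Notch pathway genes 4 were higher and 3 lower (median 0.11; 1 lower without any 1 eGFP library or control 1). HES1, the repressor that Notch induces, was at 151, 183 and 166 against 22.7, 19.2, 11.8, 22.5 and 21.2 TPM, a difference of 3.06 ± 0.20 (limma adjusted p = 1.19e-05). Of 15 Wnt targets 3 were higher and 2 lower (median -0.01), under quantile normalization 3 were higher and 4 lower, 5 were higher without control 4, and 4 were lower without control 5. EGF receptor signalling genes were higher in 5 of 23 and lower in 8 (median -0.47). EGFR itself was at 80.5 to 84.2 against 139.5 to 202 TPM, a difference of -1.12 ± 0.12 (adjusted p = 0.000168), and the RAS inhibitor SPRED1 was lower (-1.38), while the ligand HBEGF was higher (2.00).

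HOXA13 was the gene the other plasmid of the study carries, and the eGFP libraries served as its control. It was at 3.77, 1.79 and 2.44 TPM in the eGFP libraries and 0.9, 0.91, 0.92, 2.41 and 0.65 TPM in the editing controls, and control 4 lay within the eGFP range. The difference was 0.78 ± 0.26 (limma adjusted p = 0.0375, exact two-sided permutation p = 0.0714, where 3 against 5 cannot go below 0.0357). Its adjusted p was 0.0638 to 0.153 without any 1 of eGFP libraries 1 and 3 and controls 1, 2, 3 and 5. Of 12 tested genes of the HOXA cluster and JAZF1, 5 were higher and 0 lower (median 0.40), and 3 were higher under quantile normalization or without eGFP replicate 1 or 3. Relative to the editing control mean, the list median was 0.29 to 0.49 in the eGFP libraries. It was 0.25 to 0.56 in the deletion libraries, so the eGFP libraries did not stand apart from those. HOXA9 was at 80.5 to 83.2 against 37.1 to 52 TPM and higher by 0.79 ± 0.11 (adjusted p = 0.000702), and HOXA10 and HOXA11 were higher by 0.80 and 0.84. JAZF1, next to the risk region, was at 10.3, 8.37 and 9.64 against 11.2, 7.04, 4.81, 6.32 and 3.93 TPM and overlapped (0.51 ± 0.27, adjusted p = 0.143, or 0.70 and 0.0187 without control 1).

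Markers of other cell types were sparse in both groups. PTPRC, the pan-leukocyte CD45, was at 0 in all 8 libraries, CD3E did not exceed 0.08 TPM, and the endothelial genes VWF and CDH5 did not exceed 0.16 and 0.05 TPM. The summed level of 12 immune markers was 139 to 165 TPM in the eGFP libraries and 11.6 to 61.1 TPM in the controls, with 4 and 6 of them at 0 in every library of the group. Nearly all of that sum was CD68, a lysosomal protein of macrophages that other cells also make, at 158, 152 and 135 against 40.8, 50.4, 9.88, 19.2 and 24.5 TPM (2.52 ± 0.44, limma adjusted p = 0.00198). It was the 1 immune marker of 2 tested that was higher (median 0.85), and the other, CD14, differed by -0.81 ± 0.47 (adjusted p = 0.182, or -1.15 and 0.0158 without control 3). The summed level of 11 fibroblast and endothelial markers was 26.5 to 29.1 TPM against 7.53 to 12.2 TPM, almost wholly COL1A1 (1.47) and ACTA2 (1.16), the only 2 tested and both higher (median 1.31). Of 3 tested neuroendocrine markers 2 were higher and 1 lower (median 0.91; 1 higher without eGFP replicate 1 or 3, 0 lower without 1 or 2), SYP was at 0.82 to 1.23 against 0.32 to 0.53 TPM, and CHGA did not exceed 0.14 TPM. The part these markers had in the gene groups above was not tested.

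Pseudogenes held more large differences than protein-coding genes, at a near share of calls. Of 863 tested pseudogenes, 30.1% were called at least 2-fold different and 50.9% called in all, against 10.6% and 47.8% of 11915 protein-coding genes and 10.4% and 34.8% of 753 long noncoding RNAs. SNRPGP2, a processed copy of the spliceosome gene SNRPG, was listed at 1896, 1841 and 2208 TPM in the eGFP libraries and at 0 in all 5 controls. Its parent SNRPG was at 265 to 296 against 375 to 474 TPM, a difference of -0.56 ± 0.09. RPS27P21 was at 1466, 1294 and 1309.8 against 0, 0, 0, 0 and 2.61 TPM, whereas its parent RPS27 differed by 0.07 ± 0.07 (limma adjusted p = 0.391). TBPL1P1 was at 373, 248 and 556 TPM and at 0 in all controls. The opposite pattern held for PET100P1, at 12.6, 0 and 0 against 805, 725, 843, 832 and 754 TPM, and for NEDD8P1, at 0 in the eGFP libraries and 207 to 266 TPM in the controls. The parent PET100 differed by -0.13 ± 0.13 (adjusted p = 0.436), and NEDD8 was higher by 0.72 ± 0.10. Reads of a processed copy and its parent can be divided by the authors' counting, so these levels are uncertain. In all, 7 genes were at 10 TPM or more in every eGFP library and at 0 in every control, of which 3 were pseudogenes, 4 had no RefSeq match and 0 were protein-coding. Of the 7, 5 were also at 0 in every deletion library, and their level in the HOXA13-transfected libraries was not part of that count. With the reverse pattern there were 2 genes, both pseudogenes. Of these, 1 was also at 0 in every HOXA13-transfected library, and the deletion libraries were not part of that count.

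Among protein-coding genes the direction varied with genomic span. In the fifth with the shortest spans (0.276 to 9.77 kb by RefSeq) the median difference was 0.21, with 36.7% higher and 12.7% lower. In the fifth with the longest spans (88.6 to 2220 kb) it was -0.15, with 15.1% higher and 31.5% lower, and the medians of the groups between were in order. VPS13B, a lipid transfer protein of the Golgi with a long gene, was at 3.2, 2.99 and 3.35 against 62.6, 121, 50.5, 47.4 and 66.8 TPM, a difference of -4.00 ± 0.27 (limma adjusted p = 1.54e-05), and differed by -1.18 (adjusted p = 0.306) in the HOXA13 and deletion pair. The calcium-dependent kinase CAMK2B (-3.19) and the adhesion-associated FOCAD (-2.74) were also among the protein-coding genes lowest relative to the controls. Many of the protein-coding genes with the largest positive differences are given above (IFNL1, BST2, HSPA6, S100A14 and IFNB1 among them). Below these came CDA, cytidine deaminase, at 18.4 to 20.1 against 0 to 0.19 TPM, and ACTN2, a sarcomeric actinin, higher by 4.20.

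Most called differences had the same sign in a pair of groups with no shared library. That pair again sets sorted transfected cells against a genome-editing group, so a shared sign does not separate plasmid, transfection, sorting, culture and batch. Of 6967 called genes that could also be tested in HOXA13-transfected against deletion libraries, 6770 (97.2%) had the same sign there and 6057 (86.9%) also passed, where 66.5% of 15386 genes passed in all. Of 1856 called at least 2-fold, 1837 (99.0%) had the same sign. Among 7794 genes not called here, 5752 (73.8%) had the same sign. IFNB1 was at 34.5 to 56.7 TPM in the HOXA13-transfected and 0 to 0.07 TPM in the deletion libraries, HSPA6 at 35.1 to 55.7 against 0.16 to 0.77, and FN1 at 1709 to 2375 against 79.4 to 459. A test of the difference between the pairs found 644 genes (4.27%). HOXA13 was the clearest case, higher by 6.39 there against 0.78 here (adjusted p of the difference = 1.7e-08).

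**Figure D5:**
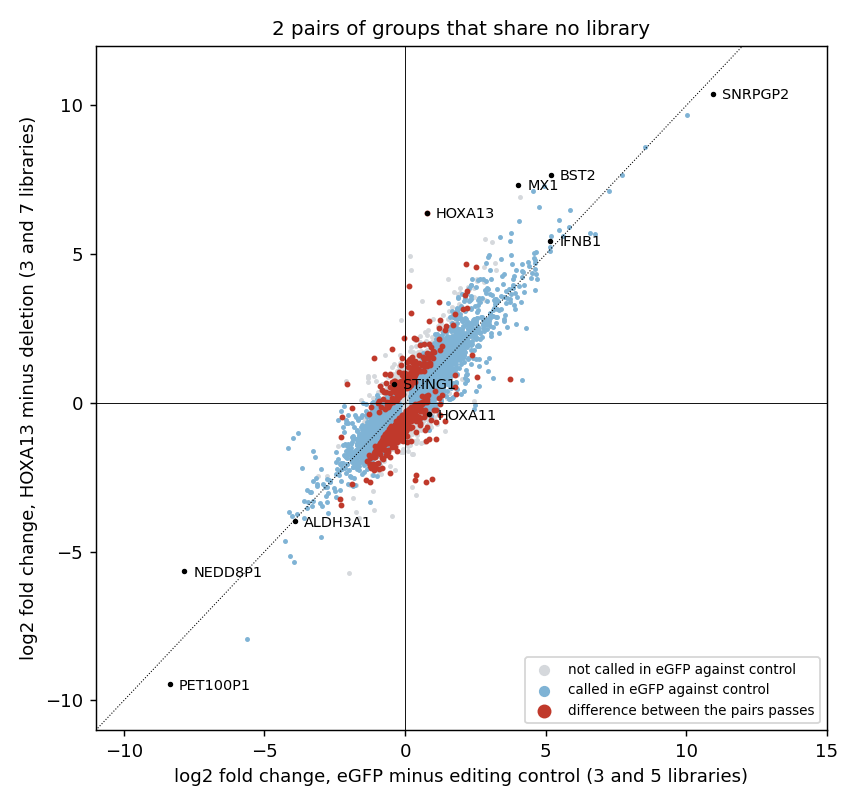
Difference of each gene between eGFP and editing control libraries (log2, x axis) against its difference between HOXA13-transfected and deletion libraries (log2, y axis); the 4 groups share no library. Points are genes, most lie along the diagonal (97.2% of called genes share a sign), and HOXA13 lies far above it.

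Among 148 named genes 10 differed between the pairs, a share above the 4.27% over all genes, and HOXA13 was 1 of them. NFKBIA was higher by 2.07 here and 3.15 there (difference -1.08, limma adjusted p = 0.0109). STING1 differed by -0.38 here and 0.65 there (difference -1.03, adjusted p = 0.0113). SLC7A11 (-1.41 and -2.60) and ELOVL6 (-1.24 and -2.04) were lower in both but less so here. HOXA9 differed by 0.79 here and 0.12 there, and HOXA11 by 0.84 and -0.38, with differences between the pairs of 0.67 and 1.22 (adjusted p = 0.0109 and 0.00676). For the interferon genes the differences between the pairs were -0.29 for IFNB1 (adjusted p = 0.358) and -0.33 for IFNL1 (adjusted p = 0.162), neither past the threshold.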

How the data were processed

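Gene-level TPM values were used as deposited by the authors. Per the submitters' processing notes, FastQC, Trimmomatic 0.35, STAR 2.5.2b, featureCounts 1.5.1, RSEM 1.3.0 and DESeq2 1.14.1 were used with GRCh37. Which of these made the TPM table, and whether counting used strand, are not given in the sources used here, so overlapping and antisense genes cannot be told apart. TPM keep no depth.

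Genes at 1 TPM or more in at least 3 of the 8 libraries were fitted on log2(TPM + 1) with limma 3.58.1 (R 4.3.3, empirical Bayes, Benjamini-Hochberg over all tested genes, threshold 0.05). A fold change on this scale understates low genes. In simulated data on 15066 genes, 76% of 2-fold and 94% of 4-fold changes among 200 altered genes were recovered. The altered genes excluded those at low levels and were far fewer than the 47.1% called in the data. These rates therefore do not measure recovery in this comparison. The difference between pairs was an interaction term over all 18 RWPE-1 libraries.

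Genes were named by rule: the 15 highest and 15 lowest among called genes without overlap and a mean of at least 5 TPM in 1 group, up to 6 called genes per list by size of difference, HOXA13, JAZF1 and the cell type markers; some named by this rule are not reported here. The most extreme protein-coding genes, pseudogene parents, sensors, laminin chains and members not called were chosen after their values were seen. The 37 lists (990 of 1003 symbols matched) and the comparison were chosen with earlier results of these data known. No library was left out as a duplicate: any 2 of the 8 differed in at least 24694 genes. Sequences came from RefSeq promoter tables.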

Additional observations from a re-analysis of the deposited data

Results flagged for a closer look

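For 19 of 131 genes tested, 1 of the 5 controls lay far outside the spread of the other 4 (Dixon's ratio above 0.71, a level that chance reaches in about 1 in 20 groups), and for 0 of 37 list medians. Control 4 accounted for 9 of these genes and control 3 for 8 of them. In control 4, KRT19 (42.7 TPM), CHAC1 (7.8 TPM), GDF15 (10.2 TPM), GABARAPL1 (6.48 TPM), HBEGF (4.39 TPM) and HOXA13 (2.41 TPM) were the highest of the controls, and KRT5 (5962 TPM), KRT14 (2843 TPM) and FN1 (152 TPM) the lowest. In control 3, KLF4 (31.5 TPM), ALDH3A1 (30.4 TPM), KRT15 (5.7 TPM), CYP1B1 (41.2 TPM) and HES1 (11.8 TPM) were the lowest, and DNAJB1 (119.9 TPM), INHBA (5.01 TPM) and CCN1 (29.8 TPM) the highest. In control 5, KRT8 was the lowest (144 TPM) and RPS27P21 the highest (2.61 TPM). Control 4 thus held less KRT5 and KRT14 and more KRT19 than the other controls.

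For 10 of 148 genes tested, the difference between eGFP and editing control libraries was not the same as that between HOXA13-transfected and deletion libraries, by limma's interaction term. Over all genes the share was 4.27%. The interaction was -5.61 for HOXA13, which the other plasmid carries, -1.03 for STING1, -1.08 for NFKBIA, 1.19 for SLC7A11, 0.80 for ELOVL6, 0.67 for HOXA9, 1.22 for HOXA11, 0.61 for CYP51A1, -1.30 for ERAP2 and -2.82 for SAA1 on the log2 scale. A negative value means a smaller or more negative difference in the eGFP comparison.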

How the results depend on the processing

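None of the 7094 called genes was called with the opposite sign in any of the 20 alternatives that tested it. At a minimum of 5 TPM 5504 of them were tested. Without genes of chromosomes 5 and 17 it was 6445, and without mitochondrially encoded genes 7090. By leaving out 1 library at a time, the number of genes higher ranged from 2881 to 3678, lower from 2536 to 3453, at least 2-fold higher from 1145 to 1287, and at least 2-fold lower from 596 to 718. With a pseudocount of 0.1 in place of 1, 1013 genes were at least 2-fold lower (against 666), and with a minimum of 5 TPM 787 were at least 2-fold higher (against 1251), in the latter case with fewer genes tested. Lower genes made up 48.3% of calls, 55.3% under quantile normalization and 39.3% with no filter on low values. Against controls 1 and 2 alone, 5 interferon-responsive genes had the opposite sign: CXCL10 at -1.74, CXCL11 at -0.82, IFI44L at -0.54, EIF2AK2 at -0.44 and STAT2 at -0.32. So did PSME2 (-0.20), ERAP1 (-0.32) and ERAP2 (-0.38) of the MHC class I list and SAA1 (-0.91) of the NF-kB list, and other lists were not searched for this. The cause was not tested. Of 148 genes named in the text, 117 kept their side of the threshold in every setting. In some settings 10 called genes missed it (CDH1, HLA-B, HLA-F, HOXA13, IFI27, KRT19, KRT8, MX2, S100A9 and TAP1). A further 17 that were not called passed in some setting with the sign of the main fit. PSME2, ERAP1, ERAP2 and SAA1, also not called, passed only against controls 1 and 2 alone, with the opposite sign given above.

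Replicate numbers in the labels were not shown to pair the samples. Each library's deviations from its group means were correlated over genes between eGFP libraries and controls. The correlation was -7e-04, -0.016 and -0.048 for same-numbered libraries and -0.0364 to 0.0388 for differently numbered ones. With the replicate block 3088 genes were higher and 2486 lower, and 73.2% of calls remained. Among the lists the block left 10 interferon-responsive, 3 MHC class I, 4 unfolded protein response, 7 YAP and 9 apoptosis genes higher, 18 histone genes higher and 10 respiratory chain genes lower, and 6 called genes of those named missed the limma threshold: HLA-B (adjusted p = 0.0552), HLA-F (0.0568), TAP1 (0.0508), IFI27 (0.0687), MX2 (0.0723) and S100A9 (0.107). KRT14 passed it (0.00777).

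The interaction gave 625, 869 and 863 genes under a pseudocount of 0.1, median-ratio scaling and quantile normalization, alternatives added after seeing the data. Without HOXA13 replicate 1, also added later, 6754 called genes shared a sign. Limits: the table holds no counts, so no interval or floor for a single library can be given, and low levels and exact zeros are uncertain.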
